A study of Homo sapiens with 6 samples.

Results

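Mitosis and G2/M genes encode the machinery with which a cell enters mitosis, divides its chromosomes and leaves mitosis again. The 48 genes described here were chosen by name for that role, with earlier results of these data known. All 48 were found among the 58302 gene entries of the count table and all were among the 15063 genes tested. RNA was sequenced from Ker-CT, human keratinocytes that TERT and CDK4 have made immortal. The cells of 3 libraries had an siRNA against KMT2C (siKMT2C) and those of the other 3 the siRNA labelled siNC, taken here as the control. Both groups had 24 h of M5, used as a model of psoriasis, a mix of 5 cytokines at 10 ng/ml each (oncostatin M, IL-22, IL-17A, IL-1α and TNF-α), and no unstimulated library was analysed here. The cells are 1 immortalised line, and the labels do not say whether replicates were separate cultures; the p-values measure the spread between these libraries, which may be technical.

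In dividing cells the G2/M programme is switched on late in the cycle, when the MuvB complex with MYBL2 and FOXM1 activates a shared set of promoters. Cyclin B with CDK1 then drives entry into mitosis, the Aurora and Polo-like kinases build the spindle, the checkpoint holds anaphase until every kinetochore is attached, and the anaphase-promoting complex (APC/C) with CDC20 ends mitosis by destroying cyclin B and securin. In the epidermis these genes are expressed by the proliferating basal layer. In a bulk RNA library their level reflects both how many cells are in late cycle and how much of each transcript such a cell holds, and these cannot be told apart here.

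Most of the member promoters in the RefSeq table hold a sequence that the rule did not use, and the short windows below are shown because they hold it. The cell cycle homology region (CHR), searched as TTTGAA on both strands, is the element that MuvB recognises, and CCAAT, searched on both strands, is the box bound by NF-Y. RefSeq promoters on GRCh38.p14, from 250 bases before to 50 after each start, were matched for 42 of the 48 members. TTTGAA was found in 31 of those 42 (73.8%), against 9.62% of the 10709 tested genes with a promoter in the table, 15.4% of all 27305 promoters there and 43.8% of those of 73 other mitotic genes. Within 60 bases before to 50 after the start, 27 members (64.3%) had a match, against 30.1% of the other mitotic genes and 2.9% of the tested genes. CCAAT was found in 31 member promoters (73.8%) and in 61.6% of those of the other mitotic genes. It was in 36.9% of the tested genes and in 35.7% of all promoters. Both elements together were in 24 members (57.1%), in 28.8% of the other mitotic genes and in 4.19% of the tested genes. The related TTCGAA, on either strand, occurred in 2 members (4.76%), in 12.3% of the other mitotic genes and in 1.72% of the tested genes. In each of the following windows of 30 bases, read 5′ to 3′ on the strand of the gene, capitals mark the CHR match; TTCAAA is the same element on the other strand.

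CCNB2, chr15:59105105-59105134, plus strand: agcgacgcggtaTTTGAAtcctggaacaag
CKS2, chr9:89311154-89311183, plus strand: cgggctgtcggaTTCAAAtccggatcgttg
PLK1, chr16:23678848-23678877, plus strand: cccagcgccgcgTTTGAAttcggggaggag
CDCA8, chr1:37692481-37692510, plus strand: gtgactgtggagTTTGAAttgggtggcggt
BUB1B, chr15:40161034-40161063, plus strand: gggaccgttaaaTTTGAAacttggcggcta
CENPN, chr16:81007205-81007234, plus strand: gcaattggtggcTTTGAAggcgcggcgagc
KIF4A, chrX:70290058-70290087, plus strand: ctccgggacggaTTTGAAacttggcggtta
HMMR, chr5:163460592-163460621, plus strand: aatgtggggagaTTTGAAtttgaaaccggt
CDC20, chr1:43358904-43358933, plus strand: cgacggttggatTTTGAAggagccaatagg
MKI67, chr10:128126435-128126464, minus strand: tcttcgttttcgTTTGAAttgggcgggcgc
NCAPG, chr4:17810932-17810961, plus strand: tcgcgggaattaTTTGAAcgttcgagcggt

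These genes cover the roles described below, from the cyclins (CCNB2) to the condensin subunits (NCAPG). In HMMR a further match follows directly after the capitals. Of the 40 CHR matches in member promoters, 30 ran in the direction of the gene and 10 against it. Neither TTTGAA nor CCAAT was in the windows of CDC25B, CDC25C, CENPE and KIF2C, and CCNA2, CCNB1, AURKB, BUB1, KIF20A, PTTG1 and NCAPH held CCAAT without TTTGAA. The 31 members with a CHR match had a median log2 fold change of 0.17 (siKMT2C over siNC), and the 11 without one a median of 0.21. A match is a description of the letters and does not show binding.

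**Figure D1:**
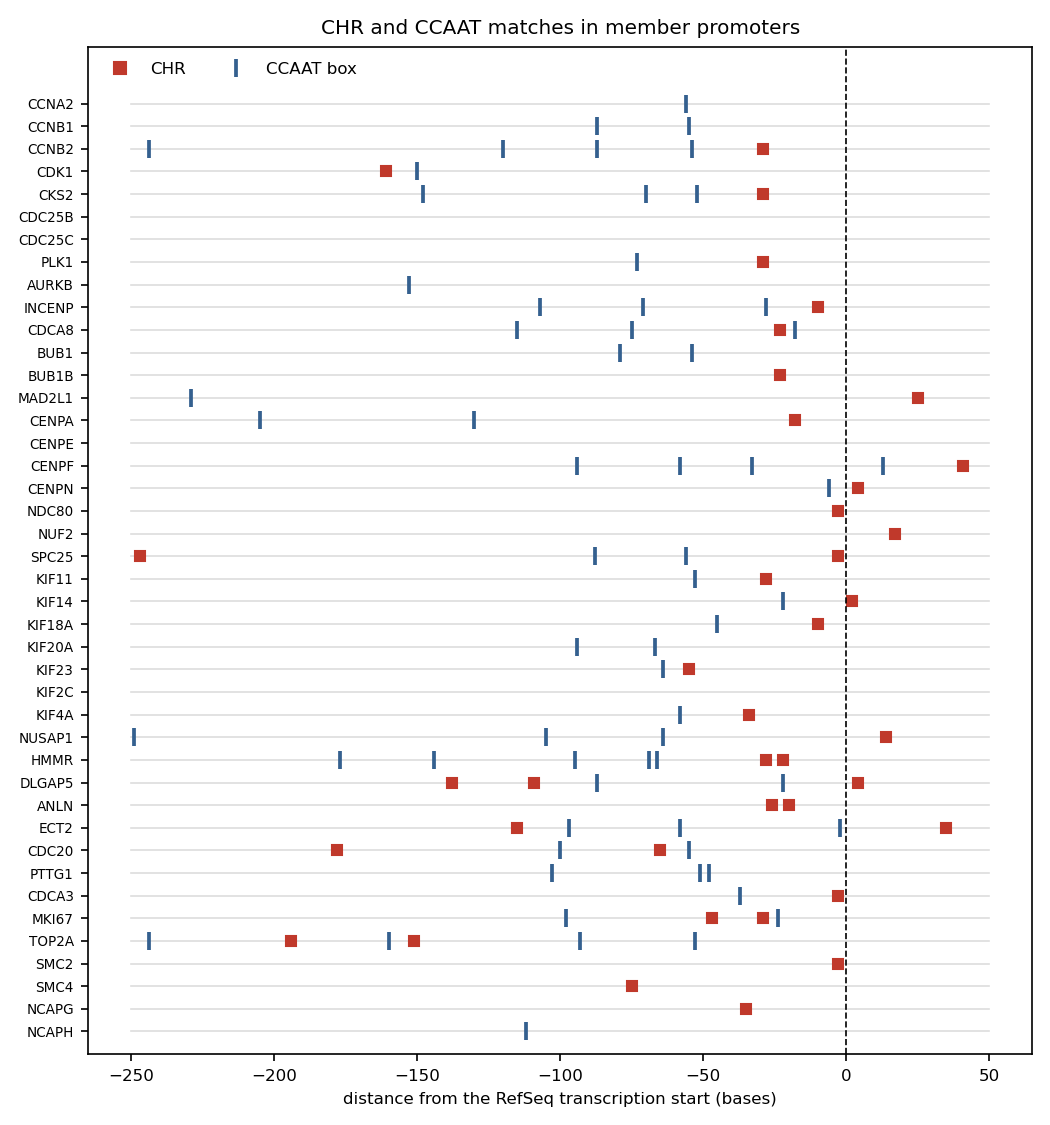
Positions of CHR (red squares) and CCAAT (blue bars) matches in the promoters of the 42 members with a RefSeq promoter; the horizontal axis is the distance in bases from the annotated start. Most CHR matches lie within 60 bases of the start, where 27 of the 42 members have one.

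The siRNA target was checked first. KMT2C, which encodes a histone H3 lysine 4 methyltransferase, had 31.99, 30.8 and 27.3 CPM in siKMT2C, against 87.9, 82.02 and 72.6 CPM in siNC (CPM, counts per 1000000 counts of the TMM-scaled library size). In siKMT2C it fell by 1.43 log2 units (SE 0.14, n = 3 each, edgeR adjusted p = 0.00786); the call was lost without siKMT2C replicate 1 (adjusted p = 0.0634) or 2 (0.0507) and without siNC replicate 2 (0.0593). An exact permutation test over 3 against 3 libraries cannot go below p = 0.1, two-sided. The libraries held 15921870 to 16414777 counts in siKMT2C and 14409277 to 17539519 in siNC. Keratinocyte markers summed to 17927 to 24539 CPM in siKMT2C and 18391 to 27717 CPM in siNC, with all 12 tested. TP63 and DSP lay lower in every siKMT2C library than in every siNC library (12.3% of all genes did), and PERP higher (11.8%). None of these was called by edgeR, and the other keratinocyte markers overlapped. Of 8 fibroblast markers 4 were tested (13.7 to 17.7 CPM in siKMT2C, 21.1 to 31.5 CPM in siNC) and of 7 melanocyte markers 3 (6.97 to 8.93 CPM in siKMT2C, 7.96 to 15.7 CPM in siNC), with TYR, DCT and SOX10 at 0. Of 8 leukocyte markers 2 were tested (13.2 to 14.7 CPM in siKMT2C, 9.84 to 14.98 CPM in siNC), with PTPRC and CD3E among those at 0. None of the 5 endothelial markers was tested (0 to 0.0642 CPM in siKMT2C, 0 to 0.208 CPM in siNC), with PECAM1, CDH5 and EMCN at 0. The fibroblast sums did not overlap between the groups. Most of each sum was COL1A1 (10.02 to 11.2 CPM in siKMT2C, 14.9 to 22.6 CPM in siNC). COL1A1, DCN and THY1 lay lower in every siKMT2C library than in every siNC library. The other fibroblast markers overlapped, and COL3A1 and LUM were higher on average in siKMT2C. The part of fibroblast markers in the values of the members was not tested.

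None of the mitosis and G2/M members was called by edgeR (adjusted p under 0.05 after Benjamini-Hochberg adjustment over all genes), where 1.5% of the genes tested were. DESeq2 called 1 member, CDC25B, where it called 5.68% of all genes, and limma-voom called 0, where it called 1.42%. In all, 226 genes were called, 104 higher (0.69%) and 122 lower (0.81%), so that 46.0% of calls were higher; after correction for transcript GC content and length that share was 56.3%, and 58.3% with a replicate block as well. The log2 fold change was above 0 in 40 of the 48 members (83.3%, against 49.7% of all genes tested). Its median was 0.19, or 1.14-fold, in the members and -0.0025 over all genes; among the 10318 genes within the members' range of mean CPM, 50.4% were above 0. At an unadjusted p under 0.05 there were 5 members higher in siKMT2C, which is 10.4% of them against 7.91% of all genes, and 1 lower, which is 2.08% against 9.01%. All 3 siKMT2C libraries lay above all 3 siNC libraries in 10 members (20.8%, against 11.8% of all genes) and below them in 1 (2.08%, against 12.3%). Intervals were wide enough to leave moderate changes undetected: the 95% interval lay within a 2-fold change either way in 44 members, and not in CDC25B, CENPN, TTK and CENPA. Member counts ran from 43 to 5994 per library.

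**Figure D2:**
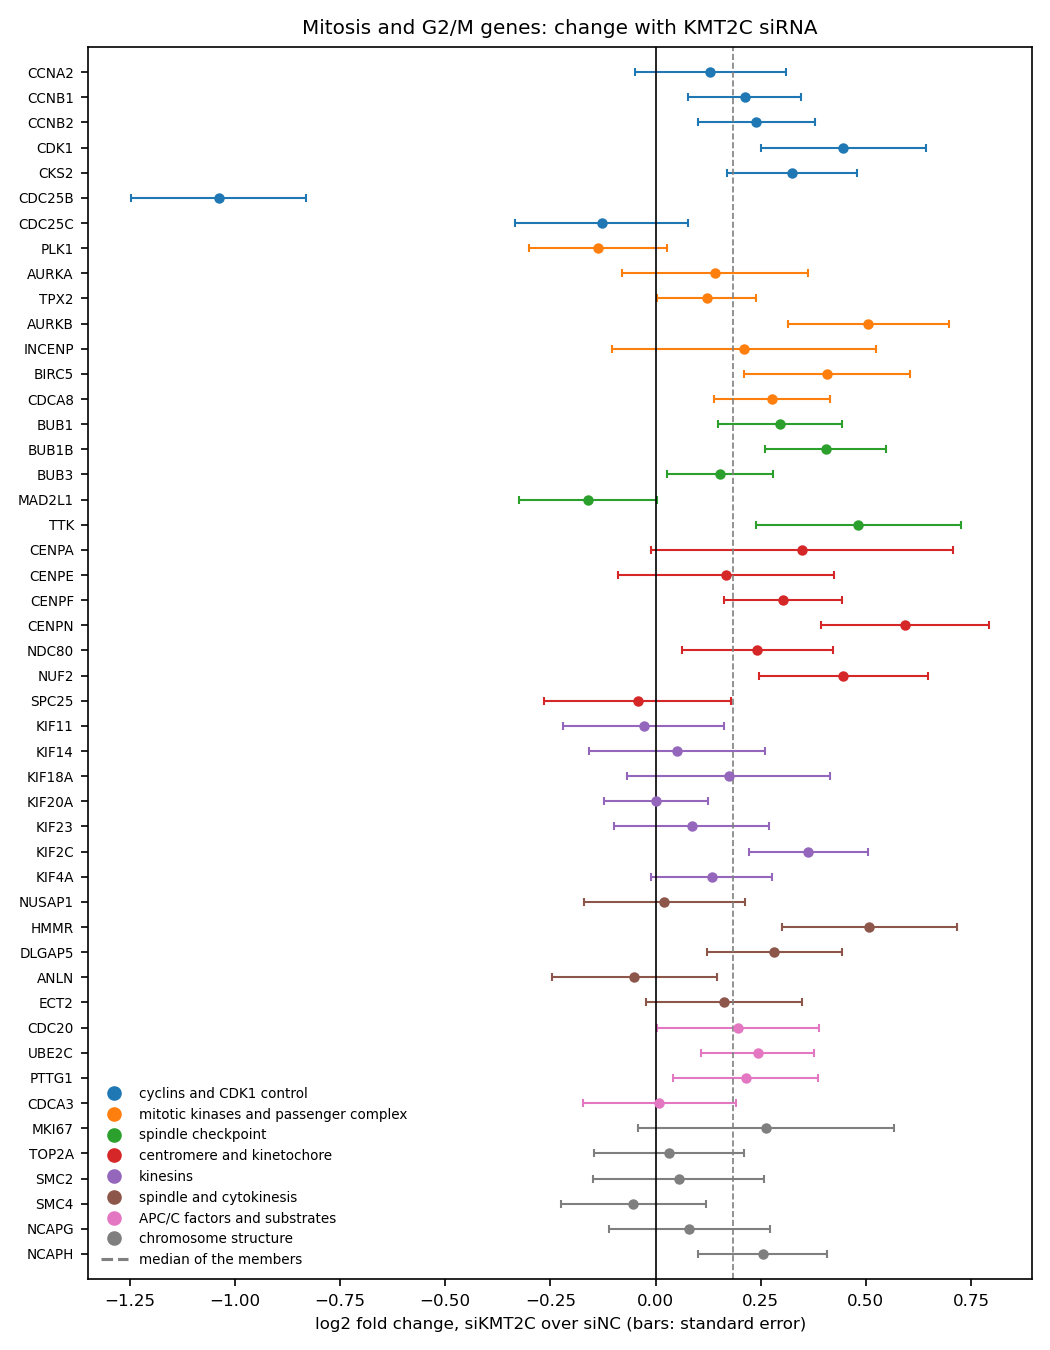
Log2 fold change (siKMT2C over siNC) of each of the 48 members with its standard error, coloured by role, from 3 libraries per group; the dashed line is the median of the members, 0.19. Of the 48 points 40 lie to the right of 0, all at or below 0.59, and CDC25B stands alone at -1.04.

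By role, median log2 fold changes were 0.30 for the 7 centromere and kinetochore genes and 0.30 for the 5 spindle checkpoint genes. They were 0.21 for the 7 cyclins and CDK1 controllers, 0.21 for the 7 mitotic kinases and chromosomal passenger genes and 0.21 for the 4 APC/C factors and substrates. The 5 spindle and cytokinesis genes (0.16), the 7 kinesins (0.09) and the 6 chromosome structure genes (0.07) lay lowest. Differences between roles were not tested. Hereafter a value given with an SE is a log2 fold change, siKMT2C over siNC, with n = 3 per group.

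Which library was lowest was uneven. siNC replicate 3 had the lowest level of 28 of the 48 members (58.3%, against 24.9% of all genes), and in 35 members all 3 siKMT2C libraries lay above it (33.8% of all genes did so). After subtraction of each gene's mean over the 6 libraries, the members' log2 CPM averaged 0.10, 0.14 and 0.03 in siKMT2C replicates 1, 2 and 3, and 0.05, -0.11 and -0.22 in siNC replicates 1, 2 and 3. The siNC replicate 1 value lay inside the siKMT2C range. Without siNC replicate 3 the median log2 fold change of the members was 0.10 and 31 of 48 were positive; without siNC replicate 1 it was 0.26 and 44 were positive. Members varied less among siKMT2C libraries than among siNC libraries, with a median SD of 0.14 log2 units in siKMT2C and 0.28 in siNC (0.20 and 0.27 in these groups over all genes). The siNC SD was the larger in 39 of 48 (81.2%, against 66% of all genes).

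**Figure D3:**
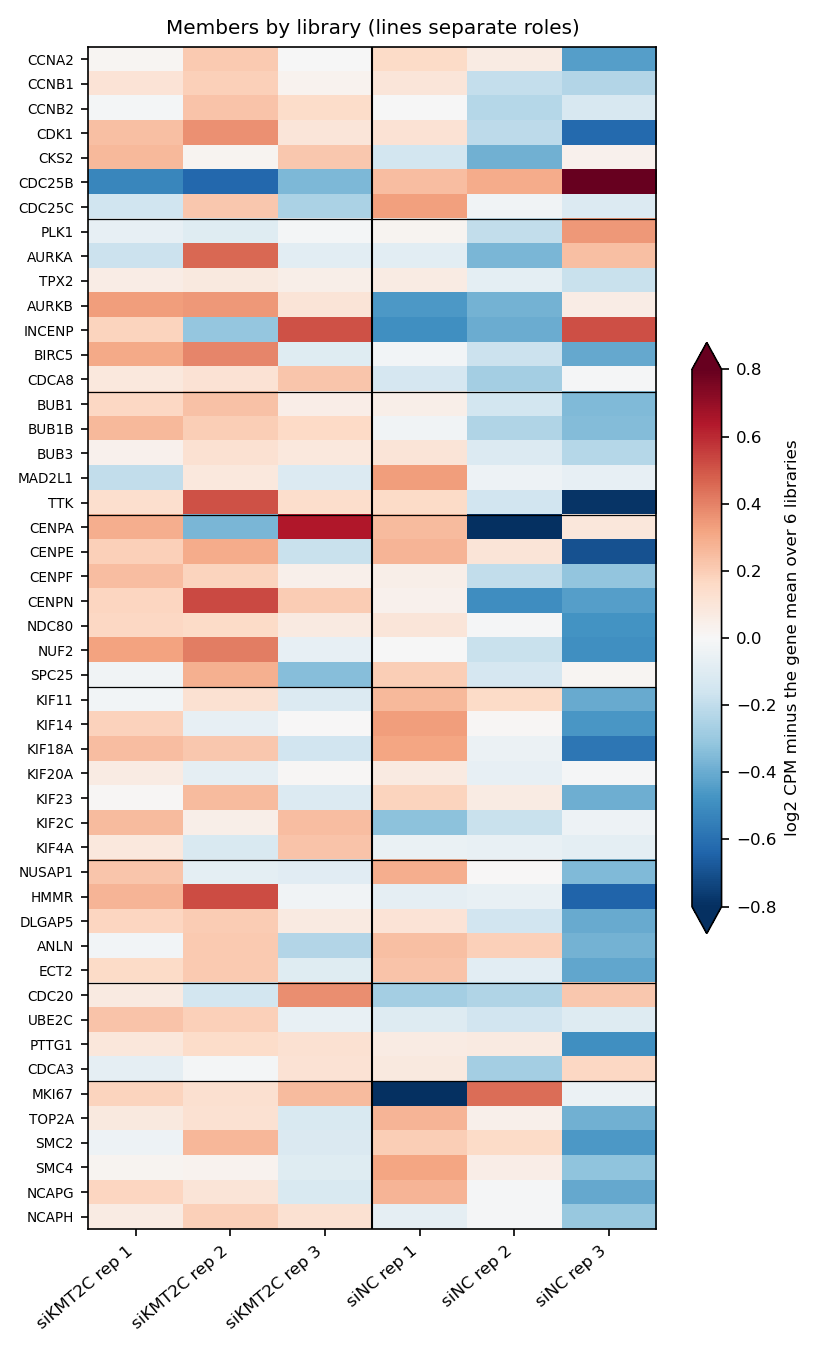
Log2 CPM of each member minus its mean over the 6 libraries, siKMT2C on the left and siNC on the right, with roles separated by horizontal lines; red is above and blue below the mean, and colours saturate at 0.8. siNC replicate 3 is the lowest column in 28 of the 48 rows and the highest in 4, which are CDC25B, PLK1, INCENP and CDCA3.

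Among the regulators of CDK1, CDC25B stood apart. This phosphatase removes the inhibitory phosphates from CDK1 and starts its activation at the centrosome. CDC25B (chromosome 20, 3786772 to 3806121, GRCh38) had 121, 112 and 135 CPM in siKMT2C, against 206, 213 and 338 CPM in siNC. All 3 siKMT2C libraries lay below all 3 siNC libraries, and siNC replicate 3 lay far above its own group. The log2 fold change was -1.04 (SE 0.21, 95% interval -1.52 to -0.56, n = 3 per group), which is 0.487 of the control level, and the edgeR adjusted p of 0.0576 just missed the threshold. The call was made with DESeq2 (adjusted p = 0.000448), with no filter on low counts (0.0143), after GC and length correction (0.00277) and without siNC replicate 3 (0.0179), where the log2 fold change was -0.78. Of all genes, 5.68%, 1.04%, 9.07% and 4.04% were called in these settings, in that order. Over all alternatives the adjusted p ran from 0.000448 to 0.239, and the sign was negative in each.

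The paralogs of CDC25B overlapped between the groups. CDC25C, which acts on CDK1 at mitotic entry, had 9.23, 12.01 and 8.66 CPM in siKMT2C, against 12.99, 10.1 and 9.57 CPM in siNC, with a log2 fold change of -0.13 (SE 0.20). CDC25A, the paralog that also serves the G1/S transition, is no member and had 22.8, 16.4 and 20.8 CPM in siKMT2C, against 14.3, 16.1 and 18.6 CPM in siNC (log2 fold change 0.29, SE 0.18). Per unit of length, CDC25B made up 69.1% to 73.1% of the summed FPKM of the 3 paralogs in siKMT2C and 82.0% to 87.7% in siNC, while the CDC25A share was 18.0% to 22.7% in siKMT2C and 8.46% to 10.97% in siNC. The ranges of both shares were apart between the groups. They are parts of the same sum, so a lower CDC25B share by itself raises the CDC25A share. The CDC25C share overlapped (7.28% to 11.7% in siKMT2C and 3.87% to 8.05% in siNC). FPKM (fragments per kilobase of gene length, scaled to library size) are the authors' values. FAM53C shares 293 exonic bases with CDC25C on the opposite strand. The counts of the whole FAM53C gene were 994% of those of CDC25C, so the CDC25C values are uncertain.

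CDK1 itself, the kinase that drives mitosis, had 76.3, 83.2 and 69.04 CPM in siKMT2C, against 69.97, 55.8 and 41.95 CPM in siNC. Its siKMT2C levels overlapped only with siNC replicate 1, and its log2 fold change was 0.45 (SE 0.20, edgeR adjusted p = 0.302). CKS2, a small subunit that docks CDK1 to its substrates, had 53.2, 45.03 and 51.5 CPM in siKMT2C, against 40.1, 33.99 and 45.5 CPM in siNC, a log2 fold change of 0.32 (SE 0.15). The cyclins lay closer to 0: CCNB1, the main mitotic cyclin, at 0.21 (SE 0.13), CCNB2 at 0.24 (SE 0.14) and CCNA2, the cyclin of S and G2 phase, at 0.13 (SE 0.18). CCNB1 had 154, 162 and 145 CPM in siKMT2C, against 152, 125 and 121 CPM in siNC, and it made up 84.3% ± 1.13 of the summed FPKM of both B-type cyclins in siKMT2C and 84.5% ± 0.945 in siNC (SD, n = 3 each).

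Of the 7 members among mitotic kinases and passenger genes, AURKB was the one with an unadjusted p under 0.05. Aurora B is the enzyme of the chromosomal passenger complex, which corrects faulty attachments of chromosomes to the spindle. AURKB (chromosome 17, 8204733 to 8210600, GRCh38) had 16.1, 16.3 and 13.7 CPM in siKMT2C, against 9.27, 9.83 and 13.3 CPM in siNC. The groups did not overlap, although siKMT2C replicate 3 and siNC replicate 3 lay close together, and the log2 fold change was 0.51 (SE 0.19, edgeR adjusted p = 0.232). The passenger complex partners BIRC5 (survivin) and CDCA8 (borealin) were also higher on average. BIRC5 had 13.4, 14.3 and 10.1 CPM in siKMT2C, against 10.7, 9.62 and 8.17 CPM in siNC (log2 fold change 0.41, SE 0.20), with overlap, and CDCA8 had 26.3, 26.98 and 28.9 CPM in siKMT2C, against 22.6, 20.6 and 24.7 CPM in siNC (0.28, SE 0.14), with none.

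The scaffold of the complex, INCENP, varied between libraries more than between groups. INCENP had 26.2, 18.7 and 32.99 CPM in siKMT2C, against 16.5, 17.6 and 33.2 CPM in siNC, with replicate 3 the highest in both groups (log2 fold change 0.21, SE 0.31). The spindle kinase AURKA had 48.7, 75.4 and 51.8 CPM in siKMT2C, against 51.8, 42.6 and 64.9 CPM in siNC, its activator TPX2 had 153, 155 and 151 CPM in siKMT2C, against 154, 139 and 129.6 CPM in siNC, and PLK1, the Polo-like kinase of mitotic entry, had 34.5, 33.7 and 35.7 CPM in siKMT2C, against 36.7, 31.6 and 46.01 CPM in siNC. None of these 3 separated the groups: the log2 fold changes were 0.14 (SE 0.22), 0.12 (SE 0.12) and -0.14 (SE 0.16).

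Of the 5 spindle checkpoint members, BUB1B had the smallest p. It encodes BUBR1, part of the mitotic checkpoint complex that inhibits CDC20. BUB1B (chromosome 15, 40161023 to 40221136, GRCh38) had 28.2, 27.05 and 26.3 CPM in siKMT2C, against 23.1, 19.9 and 18.5 CPM in siNC. The groups did not overlap, and the log2 fold change was 0.40 (SE 0.14, 95% interval 0.07 to 0.74, edgeR adjusted p = 0.207). BUB1, the kinase that recruits checkpoint proteins to kinetochores, had 48.7, 51.01 and 45.1 CPM in siKMT2C, against 44.7, 39.2 and 33.96 CPM in siNC, again without overlap (0.30, SE 0.15). TTK, the kinase MPS1 that starts the checkpoint signal, had 33.02, 42.9 and 33.2 CPM in siKMT2C, against 33.5, 27.1 and 17.5 CPM in siNC; siNC replicate 3 was far below the others, and the log2 fold change of 0.48 (SE 0.24) was not called. BUB3, a partner of BUB1 and BUBR1, was at 0.15 (SE 0.13). MAD2L1, which encodes the MAD2 inhibitor of CDC20, was the one checkpoint member with a negative value (-0.16, SE 0.16), at 27.6, 33.5 and 29.3 CPM in siKMT2C, against 39.99, 30.7 and 30.3 CPM in siNC.

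Among centromere and kinetochore genes, CENPN had the largest positive value of all members. CENP-N reads the centromeric nucleosome that contains CENP-A and belongs to the constitutive centromere-associated network (CCAN). CENPN (chromosome 16, 81006498 to 81033114, GRCh38) had 18.4, 23.6 and 18.8 CPM in siKMT2C, against 16.7, 11.6 and 11.99 CPM in siNC. All siKMT2C libraries lay above all siNC libraries, and the log2 fold change was 0.59 (SE 0.20, 95% interval 0.13 to 1.05, edgeR adjusted p = 0.189). CENPN shares 457 exonic bases with CMC2 on the opposite strand, whose counts were 118% of those of CENPN, and strand information was not given in the sources used here, so reads of both genes may be mixed.

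The outer kinetochore members were less clear. NUF2, a subunit of the NDC80 complex that grips microtubules, had 16.6, 17.7 and 12.7 CPM in siKMT2C, against 13.3, 11.8 and 9.46 CPM in siNC (0.45, SE 0.20). CENPF, a large kinetochore protein that accumulates in G2, had 123, 118 and 107 CPM in siKMT2C, against 108, 90.95 and 83.7 CPM in siNC (0.30, SE 0.14), where only siNC replicate 1 reached the siKMT2C range. NDC80 was at 0.24 (SE 0.18), the kinetochore motor CENPE at 0.17 (SE 0.26) and SPC25 at -0.04 (SE 0.22). CENPA, the histone H3 variant of centromeres, was at 0.35 (SE 0.36) with low counts, and it shares 138 exonic bases with SLC35F6, whose counts were 748% of its own.

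KIF2C was the one kinesin among the 7 members of that role with an unadjusted p under 0.05. It encodes MCAK, which depolymerises microtubules at centromeres. KIF2C (chromosome 1, 44739818 to 44767767, GRCh38) had 37.9, 32.8 and 37.7 CPM in siKMT2C, against 25.3, 28.1 and 30.9 CPM in siNC. The groups did not overlap, with a log2 fold change of 0.36 (SE 0.14, edgeR adjusted p = 0.244). The chromokinesin KIF4A had 27.2, 23.5 and 30.1 CPM in siKMT2C, against 24.7, 24.6 and 24.3 CPM in siNC (0.13, SE 0.14), and KIF18A, which damps chromosome movements, had 22.4, 21.97 and 17.01 CPM in siKMT2C, against 23.5, 18.3 and 12.7 CPM in siNC (0.17, SE 0.24). KIF11, the motor that separates spindle poles, was at -0.03 (SE 0.19), KIF23, of the central spindle, at 0.09 (SE 0.18) and the cytokinetic KIF14 at 0.05 (SE 0.21). KIF20A, the central spindle motor that carries Aurora B, had 46.7, 42.5 and 45.02 CPM in siKMT2C, against 46.9, 42.7 and 44.4 CPM in siNC, which is the narrowest spread of the kinesins and a log2 fold change of 0.0016 (SE 0.12). Genes on the opposite strand share exonic bases with KIF4A (PDZD11), KIF18A (METTL15) and KIF20A (BRD8 and CDC23) and held at least as many counts, so these 3 values are uncertain.

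HMMR had the smallest p of the 5 spindle and cytokinesis members. It encodes RHAMM, a hyaluronan receptor that also binds spindle microtubules. HMMR (chromosome 5, 163460203 to 163491945, GRCh38) had 79.9, 95.01 and 64.9 CPM in siKMT2C, against 62.9, 63.4 and 42.3 CPM in siNC. Its groups were separated by a small gap between siKMT2C replicate 3 and siNC replicate 2, and the log2 fold change was 0.51 (SE 0.21, edgeR adjusted p = 0.27). It was called after GC and length correction, as was CENPF. That setting, added after seeing the data, called 9.07% of all genes. The adjusted p ran from 0.0301 to 0.563 over all alternatives for HMMR and from 0.0204 to 0.655 for CENPF. DLGAP5, which bundles spindle fibres near chromosomes, had 45.3, 46.4 and 42.3 CPM in siKMT2C, against 43.5, 36.3 and 30.4 CPM in siNC (0.28, SE 0.16). ECT2, the exchange factor that activates RHOA for cytokinesis, had 82.1, 85.4 and 69.1 CPM in siKMT2C, against 86.5, 69.7 and 55.3 CPM in siNC (0.16, SE 0.19). NUSAP1 (0.02, SE 0.19) and the contractile ring scaffold ANLN (-0.05, SE 0.20) lay near 0. siNC replicate 3 was the lowest library for all 5 of these genes. NUSAP1 shares 1787 exonic bases with AC087721.2 on the same strand, for which no count was available, so its value is uncertain.

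**Figure D4:**
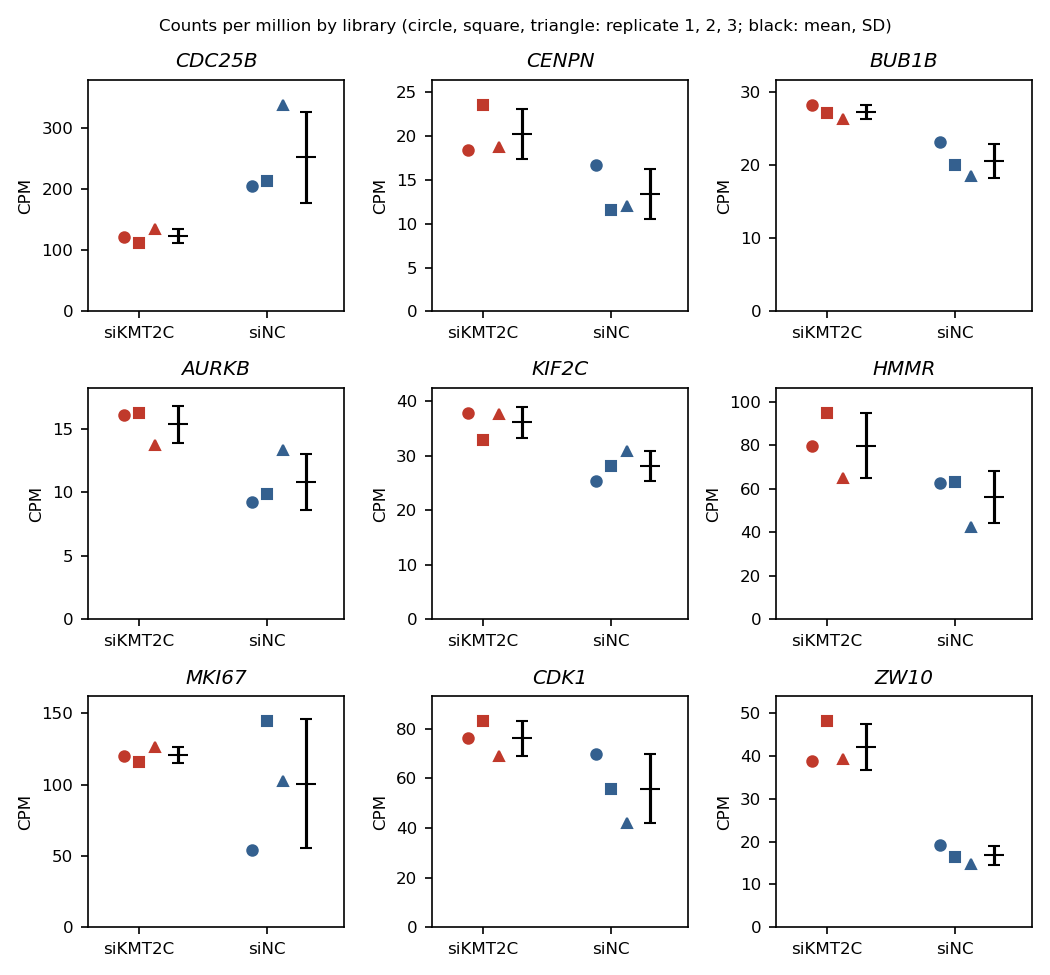
CPM of 9 genes in each library (circle, square and triangle for replicates 1, 2 and 3), siKMT2C in red and siNC in blue, with the mean and SD in black; every vertical axis starts at 0. The groups are apart in CDC25B, CENPN, BUB1B, AURKB, KIF2C, HMMR and ZW10 and overlap in MKI67 and CDK1.

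The 4 APC/C factors and substrates had positive log2 fold changes. UBE2C, the ubiquitin-conjugating enzyme of the APC/C, had 49.2, 47.99 and 40.4 CPM in siKMT2C, against 39.1, 37.9 and 39.2 CPM in siNC, without overlap (0.24, SE 0.13). PTTG1, which encodes securin, had 76.3, 79.3 and 77.8 CPM in siKMT2C, against 75.1, 75.2 and 50.96 CPM in siNC; the groups did not overlap, and siNC replicates 1 and 2 lay just below the siKMT2C values and siNC replicate 3 far below (0.21, SE 0.17). CDC20, the activator that is released when the checkpoint is satisfied, had 75.8, 65.1 and 93.1 CPM in siKMT2C, against 59.6, 60.9 and 83.7 CPM in siNC, with replicate 3 the highest in each group (0.20, SE 0.19). CDCA3, a trigger of mitotic entry, was at 0.01 (SE 0.18).

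Of the 6 chromosome structure members, NCAPH was the one with no overlap between groups. It encodes the kleisin subunit of condensin I, and it had 15.96, 17.4 and 16.6 CPM in siKMT2C, against 14.5, 15.1 and 12.3 CPM in siNC (0.25, SE 0.15). The other condensin members NCAPG (0.08, SE 0.19), SMC2 (0.05, SE 0.20) and SMC4 (-0.05, SE 0.17) lay near 0, as did the topoisomerase TOP2A (0.03, SE 0.18). NCAPG had 50.5, 47.99 and 41.2 CPM in siKMT2C, against 53.95, 44.4 and 33.6 CPM in siNC. On the opposite strand, NCAPG shares 1631 exonic bases with LCORL (65.5% of its counts). SMC4 shares 1561 with TRIM59 (24.7%) and 607 with IFT80 (46.04%), so reads may be mixed in both members. MKI67, the gene of the proliferation marker Ki-67, had 120.1, 116 and 126 CPM in siKMT2C, against 54.5, 145 and 103 CPM in siNC. The siKMT2C libraries were close together, while siNC replicate 1 was far below and siNC replicate 2 above all of them, so that MKI67 (log2 fold change 0.26, SE 0.30) gave no order of the groups. In siNC replicate 1 most other members were not low: that library was the highest of the 6 in 12 members and the lowest in 5.

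Per unit of length the members spanned a wide range of levels. The highest mean FPKM were those of CKS2 (80.6 in siKMT2C and 65.6 in siNC), TPX2 (41.97 in siKMT2C and 39.3 in siNC), CCNB1 (38.98 in siKMT2C and 34.3 in siNC) and TOP2A (27.1 in siKMT2C and 27.03 in siNC). CDC25B stood at 13.6 FPKM in siKMT2C and 28.4 FPKM in siNC. The lowest were CDCA3 (0.670 in siKMT2C and 0.678 in siNC), CENPA (1.68 in siKMT2C and 1.34 in siNC), BIRC5 (1.99 in siKMT2C and 1.53 in siNC) and CDC25C (1.71 in siKMT2C and 1.91 in siNC). In the NDC80 complex, NDC80 made up 47.2% ± 2.66 of the summed FPKM of NDC80, NUF2, SPC24 and SPC25 in siKMT2C and 46.8% ± 6.42 in siNC, and SPC25 21.6% ± 2.98 in siKMT2C and 26.5% ± 2.11 in siNC (SD, n = 3 each). In condensin I, NCAPD2 made up 32.1% ± 1.94 of the sum over its 5 genes in siKMT2C and 31.9% ± 6.21 in siNC, and NCAPH 8.12% ± 0.362 in siKMT2C and 7.16% ± 0.419 in siNC.

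A further 85 genes of mitosis that are no members were set beside them, from a list by function. ZW10 was the one gene called among the 85 in the main edgeR fit, where 1.5% of all genes tested were. It encodes a subunit of the RZZ complex, which brings dynein and checkpoint proteins to unattached kinetochores. ZW10 (chromosome 11, 113733187 to 113773811, GRCh38) had 38.7, 48.1 and 39.3 CPM in siKMT2C, against 19.2, 16.4 and 14.8 CPM in siNC. The groups were well apart, and ZW10 rose by 1.32 on the log2 scale (SE 0.16, 95% interval 0.94 to 1.70, edgeR adjusted p = 0.0137). Its partner KNTC1, the ROD subunit, had 38.2, 44.01 and 31.4 CPM in siKMT2C, against 41.4, 35.7 and 23.9 CPM in siNC (0.17, SE 0.23). The call of ZW10 was lost without siKMT2C replicate 1 (adjusted p = 0.083), 2 (0.0644) or 3 (0.055) and without siNC replicate 2 (0.0945), with a log2 fold change of 1.21 to 1.43 over all alternatives.

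The log2 fold change was above 0 in 62 of the 85 genes (72.9%, against 49.7% of all genes) and its median was 0.17. All 3 siKMT2C libraries lay above all 3 siNC libraries in 20 of the 85 (23.5%, against 11.8% of all genes). They lay below them in 3 (3.53%, against 12.3%). Kinetochore and checkpoint genes of this list had the highest median (0.41, 24 of 26 positive), followed by condensin (0.26, 4 of 4), the transcription factors and MuvB subunits (0.18, 5 of 7), spindle genes (0.12, 13 of 19), entry control (0.06, 7 of 11) and APC/C subunits and cohesin regulators (0.03, 9 of 18). These differences between lists were not tested. The SKA complex subunit SKA2 had 47.8, 59.9 and 49.5 CPM in siKMT2C, against 39.2, 28.7 and 28.2 CPM in siNC (0.71, SE 0.18, edgeR adjusted p = 0.102).

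For FOXM1 and MYBL2, the transcription factors of the G2/M programme, every siKMT2C library lay above every siNC library. FOXM1 had 22.2, 35.4 and 44.5 CPM in siKMT2C, against 18.9, 18.00 and 20.4 CPM in siNC (0.83, SE 0.24, edgeR adjusted p = 0.142), and MYBL2 had 26.4, 21.7 and 32.4 CPM in siKMT2C, against 16.1, 19.2 and 21.2 CPM in siNC (0.51, SE 0.19). Neither was called. Both genes were highest in replicate 3 in each group, and in each group replicate 3 had the lowest mean of the 48 members. Any link between these was not tested.

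In mitotic entry control, ENSA, whose product restrains the phosphatase PP2A-B55, had 98.6, 99.4 and 108 CPM in siKMT2C, against 61.4, 65.1 and 85.5 CPM in siNC (0.53, SE 0.16). WEE1, the kinase that opposes CDC25 by phosphorylating CDK1, had 23.7, 30.96 and 24.4 CPM in siKMT2C, against 33.8, 38.8 and 34.4 CPM in siNC (-0.44, SE 0.16), with all siKMT2C libraries below all siNC libraries. Neither passed the main edgeR test (adjusted p = 0.143 and 0.208). ENSA was called with the replicate block (6.43% of all genes were), with correction and block (9.22%) and without siNC replicate 3 (4.04%). Of the APC/C, the subunit ANAPC2 had 21.8, 19.98 and 22.2 CPM in siKMT2C, against 27.9, 25.9 and 39.1 CPM in siNC (-0.54, SE 0.18), again with no overlap, and ANAPC7 had 54.6, 61.5 and 46.4 CPM in siKMT2C, against 43.7, 45.5 and 42.97 CPM in siNC (0.30, SE 0.14).

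Of the 3 condensin II subunits in the list none was called in the main edgeR fit. NCAPG2 was called with DESeq2 (5.68% of all genes were), NCAPD3 after GC and length correction (9.07%), and both with correction and block (9.22%). In NCAPG2 and NCAPD3 every siKMT2C library lay above every siNC library (11.8% of all genes did so). NCAPG2 had 39.9, 38.03 and 42.1 CPM in siKMT2C, against 29.3, 27.6 and 27.9 CPM in siNC (0.50, SE 0.12, edgeR adjusted p = 0.0987), and NCAPD3 had 65.6, 62.5 and 58.4 CPM in siKMT2C, against 49.9, 46.03 and 47.5 CPM in siNC (0.38, SE 0.12). NCAPH2 was at 0.15 (SE 0.17) with overlap. For cytokinesis, CEP55, a midbody protein, had 48.1, 49.1 and 44.4 CPM in siKMT2C, against 40.7, 35.99 and 27.8 CPM in siNC (0.44, SE 0.17), and the spindle kinesin KIF15 had 18.5, 16.7 and 14.4 CPM in siKMT2C, against 13.3, 13.3 and 8.73 CPM in siNC (0.49, SE 0.21).

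**Figure D5:**
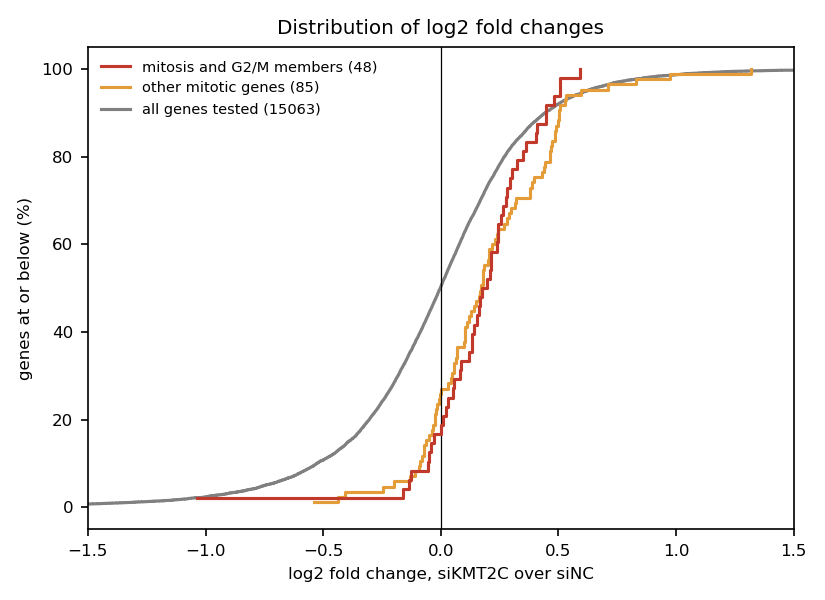
Cumulative share of genes (%) at or below each log2 fold change (siKMT2C over siNC), for the 48 members, the 85 other mitotic genes and the 15063 genes tested; the horizontal axis is shown from -1.5 to 1.5. Both mitotic curves lie to the right of the curve of all genes around 0, with medians of 0.19 and 0.17, and the members end at 0.59.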

How the data were processed

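Counts per gene were taken as the authors deposited them, with FPKM beside them in the same table, per the file headers. CASAVA 1.8 and TopHat2 2.0.6 are named in the submitters' processing notes, where mm10 is the build named, although the gene IDs are human. The counting program, its strand setting, the annotation and the human build are not given in the sources used here. Tested against the counts, the deposited FPKM were the counts divided by gene length and total counts (largest relative deviation 6.3e-05 over 13748 genes). Symbols and coordinates come from GENCODE 29 (GRCh38), and promoters from RefSeq (GRCh38.p14).

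Genes passing filterByExpr were scaled by TMM and compared by a robust quasi-likelihood F test in edgeR 4.0.16 (R 4.3.3), with Benjamini-Hochberg adjustment over all 15063 genes and a threshold of 0.05; SE was obtained as |log2 fold change| / √F and 95% intervals from it with a t quantile. Alternatives used DESeq2 1.42.0, limma 3.58.1 (voom), other scalings and filters, a replicate block and each library left out; a loess correction for GC content and length (span 0.3) was added after seeing the data. The edgeR fit was tested on simulated data with known changes. Figures used matplotlib 3.10.9.

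Members, roles and lists were chosen with earlier results of these data known. Genes named are every member, with per-library values for at least 3 per role by p, and of the other mitotic genes those called or the 2 with the smallest p per sub-list; CDC25A, KNTC1 and NCAPH2 were added after their values were seen. Of the members, 19 share exonic bases with another annotated gene, and in 6 that gene holds at least as many counts. The gene that overlaps NUSAP1 had no count to compare. Named pseudogenes or copies held at most 0.87% of a member's counts. Depth was 14409277 to 17539519 counts per library; precision at low counts is limited by it. The level of 1 leukocyte marker is not reported here.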

Additional observations from a re-analysis of the deposited data

How the results depend on the processing

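Over the alternatives the median log2 fold change of the members stayed positive, from 0.10 to 0.26, with 31 to 44 of 48 positive. All genes called, 226 in all (104 higher and 122 lower), came to 855 (402 and 453) with DESeq2, 968 (456 and 512) with a replicate block, 1366 (769 and 597) after GC and length correction and 1389 (810 and 579) with that correction and the block. Leaving out 1 library gave 16 (without siNC replicate 2) to 620 (without siNC replicate 3), with 6 to 262 higher and 10 to 358 lower. Members called, 0 with edgeR (6 at an unadjusted p under 0.05), were 1 with DESeq2 (5.68% of all genes were called), 1 with no filter (1.04%), 2 with the block (6.43%), 3 after GC and length correction (9.07%) and 3 with that correction and the block (9.22%); CDC25B was among them each time, with HMMR under the block and HMMR and CENPF after the correction. With 1 library left out, 0 to 1 members were called, with 1 without siNC replicate 3, where 4.04% of all genes were called. Other mitotic genes called were 1 of 85 in the main edgeR fit (ZW10, where 1.5% of all genes were called). With DESeq2 (5.68% of all genes) they were 5: ZW10, FOXM1, ZWINT, SKA2 and NCAPG2. The block (6.43%) gave 5, with ENSA in place of NCAPG2. After the correction (9.07%) they were 7: ZW10, MYBL2, PKMYT1, KNL1, SKA2, KIF20B and NCAPD3. With both (9.22%) there were 8. Leaving out 1 library gave 0 to 3, with 3 without siNC replicate 3, where 4.04% of all genes were called. The cause of these differences was not tested. Members had a median transcript GC content of 42.6%, against 47.96% over all genes tested.

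Replicate numbers were not taken to pair the libraries: same-numbered libraries deviated from their group means with correlations of 0.02, 0.09 and 0.37 over all genes tested, and not every library correlated best with its own number. Signs near 0 turned in KIF20A with library size alone (-0.026), with a CPM of at least 1 in 3 libraries (-0.0016), after the correction (-0.0084) and with correction and block (-0.0079). NUSAP1 turned with library size alone (-0.0060), after the correction (-0.061) and with correction and block (-0.061), and CDCA3 with library size alone (-0.0196). With 1 library left out, log2 fold changes that turned ranged as follows: KIF14 -0.14 to 0.26, KIF20A -0.031 to 0.0398, NUSAP1 -0.14 to 0.19, AURKA -0.077 to 0.30, KIF23 -0.074 to 0.20, TOP2A -0.14 to 0.19, SMC2 -0.14 to 0.17, SPC25 -0.21 to 0.10, KIF11 -0.21 to 0.10, ANLN -0.23 to 0.058, CDCA3 -0.11 to 0.089, CDC25C -0.28 to 0.019, MKI67 -0.035 to 0.62, SMC4 -0.21 to 0.11, CCNA2 -0.039 to 0.25, PLK1 -0.26 to 0.013, CENPE -0.082 to 0.36, KIF18A -0.039 to 0.41, NCAPG -0.089 to 0.25. An arm of 2 libraries then shares its spread with the other group.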
